A study of Homo sapiens with 6 samples.

Results

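The insulin-like growth factor (IGF) axis was followed through 10 genes in HEK-293T, an established line grown from human embryonic kidney: the ligand IGF2, the receptors IGF1R, INSR and IGF2R, the binding proteins IGFBP2, IGFBP4 and IGFBP5, and the receptor substrates IRS1, IRS2 and IRS4. They were taken by gene symbol from a deposited table of 50868 genes, none of the 10 symbols was repeated, and all 10 were among the 15953 genes that had enough reads to be tested. The cells were wild type in both groups. One group of 3 libraries came from cells kept for 12 h with the solvent DMSO, the other 3 from cells kept for the same time with 10 µM nitidine chloride, a plant benzophenanthridine alkaloid. Levels per library are given as CPM, the read count scaled to a common library size with edgeR's TMM factors. The labels do not say whether the libraries of a group came from separate cultures, so p-values measure the spread between these libraries, which may be technical.

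IGF2 is a secreted peptide hormone that signals through the tyrosine kinase receptors encoded by IGF1R and INSR. The activated receptors phosphorylate the IRS docking proteins, which recruit phosphoinositide 3-kinase (PI3K) and so turn on AKT and mTORC1. IGF2R, the cation-independent mannose 6-phosphate receptor, has no kinase and carries IGF2 and lysosomal enzymes to lysosomes, while the IGFBPs bind IGFs outside the cell and limit or prolong their action. IRS4 was first purified from HEK-293 cells and is made in few adult tissues.

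After nitidine chloride, transcripts of all 3 receptors and of the most abundant substrate, IRS4, were lower, and IGFBP4 was higher. IGF1R was 6.88-fold lower, IRS4 5.12-fold lower, IGF2R 2.32-fold lower and INSR 1.93-fold lower, and IGFBP4 was 2.88-fold higher. IGF2 rose 1.34-fold and IGFBP2 1.16-fold, IRS2 fell 1.28-fold and IGFBP5 1.19-fold, and IRS1 did not pass the test. In all, 6 of the 10 genes were called lower and 3 higher at an adjusted p under 0.05 in edgeR's quasi-likelihood test, against 27% and 24.7% of all tested genes. Past a 2-fold change, 3 were lower and 1 higher, against 11.7% and 3.87% of tested genes. The groups did not overlap for 9 of the 10, against 60.7%. When DMSO replicate 2 or DMSO replicate 3 was left out, IGFBP4 was the single gene of the axis called higher. In bulk RNA, fewer cells with a transcript and less of it per cell cannot be told apart.

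**Figure D1:**
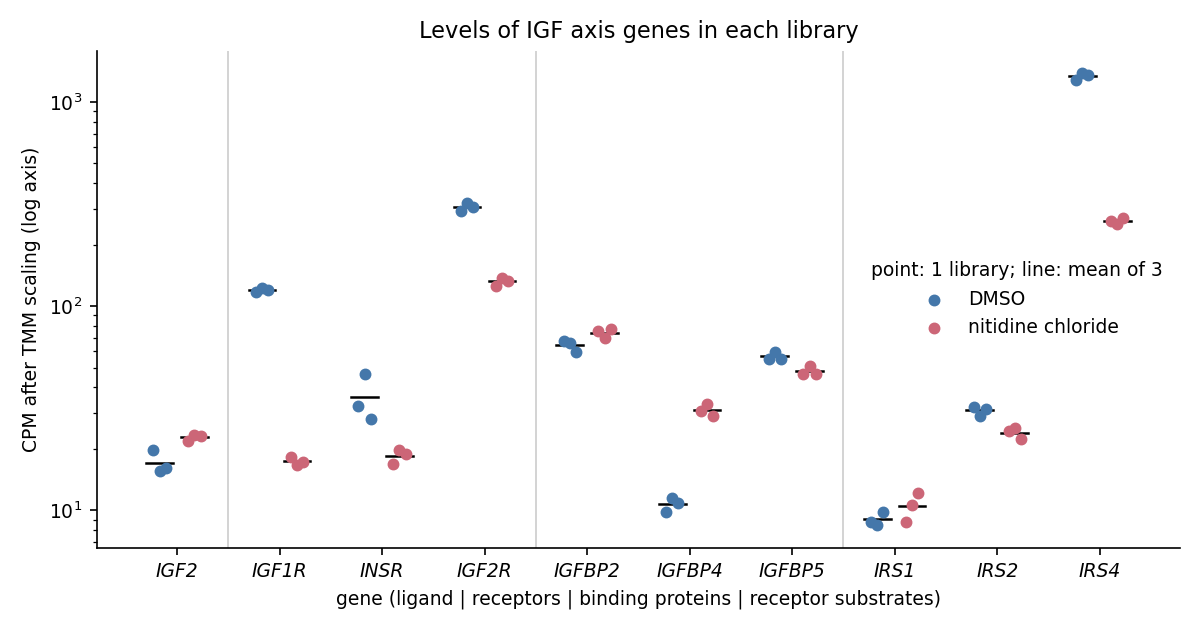
Level of each gene in each library, in CPM on a log axis, with 1 point per library and a line at the mean of 3 libraries per group. The 2 groups lie apart for IGF1R, IGF2R, IGFBP4 and IRS4, lie closer for the other genes, and overlap for IRS1.

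The genes ranged in genomic span, the distance from start to end with introns, from 3.93 kb for IRS4 to 316 kb for IGF1R. IRS4 has 1 exon and hence no intron in GENCODE release 29, whereas the IGF2R transcript with the longest coding part has 48 exons and that of INSR has 22. Promoter sequence is shown for the genes with the strongest fall, at opposite ends of this range, and for the gene with the strongest rise. The lines give the 250 bases before the RefSeq start (GRCh38.p14) at chrX:108736564-108736813 (minus strand), chr17:40443200-40443449 (plus strand) and chr15:98648289-98648538 (plus strand), and capitals mark motifs found on either strand. The RefSeq starts lie upstream of the deposited gene starts, by 154 bp for IRS4, 11 bp for IGFBP4 and 432 bp for IGF1R. Searched letters were GGGCGG for the box bound by SP1-like factors, called GC box here. For the TATA box of promoters with a fixed start they were TATAAA, and no matches overlapped in these lines.
IRS4: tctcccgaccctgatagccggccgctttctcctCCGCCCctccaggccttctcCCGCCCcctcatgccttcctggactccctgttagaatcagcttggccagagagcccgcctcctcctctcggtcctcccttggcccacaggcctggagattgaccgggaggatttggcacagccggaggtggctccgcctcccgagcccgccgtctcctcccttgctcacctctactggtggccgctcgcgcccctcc
IGFBP4: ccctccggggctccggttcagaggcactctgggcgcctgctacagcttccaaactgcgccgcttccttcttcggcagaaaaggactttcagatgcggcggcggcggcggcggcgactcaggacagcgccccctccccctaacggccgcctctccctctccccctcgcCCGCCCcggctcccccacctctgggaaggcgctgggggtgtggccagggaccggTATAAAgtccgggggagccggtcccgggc
IGF1R: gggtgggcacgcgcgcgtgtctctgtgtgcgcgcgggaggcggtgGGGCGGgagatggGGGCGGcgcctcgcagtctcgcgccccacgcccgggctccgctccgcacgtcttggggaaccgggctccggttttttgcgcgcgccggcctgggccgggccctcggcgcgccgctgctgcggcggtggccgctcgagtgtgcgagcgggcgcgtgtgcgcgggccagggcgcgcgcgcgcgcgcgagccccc

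Each line was read from a window of 300 bases that also holds 50 bases after the start. Such windows were present for 9 of the 10 genes. IGFBP2 had 3 windows and IRS4 had 2, of which only the most upstream was read. The values given for these genes need not hold for their other windows. A GC box was found in the windows of all of these but IGFBP5, between 1 match for IGFBP2 and 6 for IGF2R, and in 44.9% of 34796 windows of all genes. TATAAA was found only in the IGFBP4 window of these 9, and in 11.6% of all windows. GTAAACA, the core element of FOXO factors, occurs in 3.42% of all windows, TGACGTCA (cyclic AMP response element) in 1.84% and TGATGNAA (C/EBP-ATF element) in 3.63%. None of these last motifs matched in the 9 windows. The GC content was 68.3% for IRS4, 74% for IGFBP4 and 79.7% for IGF1R, against a median of 58.7% over all windows, and was lowest for IGFBP2 with 55.3%. These matches describe the letters of the windows and were not related to the changes.

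IGF2 (ENSG00000167244) lies at chr11:2129112-2141238 on the minus strand and had low levels. In DMSO it was at 19.7, 15.6 and 16.1 CPM, and after nitidine chloride at 21.95, 23.4 and 23.2. All 3 treated libraries were above the highest DMSO library, DMSO replicate 1. The log2 fold change was 0.42 ± 0.11 (SE), with an edgeR adjusted p of 0.0162, which was 0.0619 when DMSO replicate 2 was left out and 0.0623 for DMSO replicate 3. The readthrough gene INS-IGF2, which overlaps IGF2, had 0 counts in all libraries, and the antisense gene IGF2-AS had 0 to 5 counts, so neither added many reads. IGF1 and insulin (INS), the other ligands of these receptors, had 0 counts in every library, so IGF2 was the only one of these 3 ligand genes with reads. A count of 0 was also seen for H19, the noncoding neighbour imprinted together with IGF2.

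IGF1R (ENSG00000140443, chr15:98648971-98964530, plus strand) encodes the receptor that binds IGF1 and IGF2. It was at 117, 123 and 120.1 CPM in DMSO and at 18.3, 16.7 and 17.3 after nitidine chloride. The spread within each group was small against the gap, with a log2 fold change of -2.78 ± 0.07 and an edgeR adjusted p of 4.28e-07. Of all tested genes, 1.79% had a lower log2 fold change. INSR (ENSG00000171105, chr19:7112255-7294034, minus strand), the insulin receptor, whose short isoform also binds IGF2, was at 32.5, 46.7 and 28.2 CPM in DMSO and at 16.8, 19.8 and 18.98 after treatment. DMSO replicate 2 stood above the other 2 DMSO libraries, and all treated libraries were below the lowest of them. INSR fell with -0.95 ± 0.19 (edgeR adjusted p = 0.00384), and with -0.71 without DMSO replicate 2 (edgeR adjusted p = 0.00388).

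IGF2R (ENSG00000197081, chr6:159969099-160113507, plus strand) was at 291, 321 and 306 CPM in DMSO and at 125, 138 and 133 after nitidine chloride. Its log2 fold change was -1.21 ± 0.07 (edgeR adjusted p = 5.38e-06), and the lowest DMSO library, replicate 1, lay far above the highest treated library. AL353625.1, annotated inside IGF2R on the same strand, held 1.79% as many counts as IGF2R and fell with -1.04 ± 0.21, so it could move the IGF2R count only slightly. AIRN, the antisense RNA known to silence this gene in mouse, had 0 counts in all libraries. The title of the series names IGF2R as a target of autophagic degradation, which concerns the protein. These values are of its RNA.

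The ratio of 2 genes within a library does not depend on how libraries are scaled. For IGF1R to INSR, the log2 ratio of counts was 1.85, 1.39 and 2.09 in the DMSO libraries and 0.12, -0.24 and -0.13 in the treated libraries, so reads of the 2 receptors were near parity after treatment. The difference was -1.86 on the log2 scale, with no overlap of the groups. For IGF2 to IGF2R the mean log2 ratio went from -4.16 ± 0.25 to -2.53 ± 0.03 (SD, n = 3), a 3.10-fold increase of the ligand's reads relative to those of this receptor. For each of the 8 ratios computed over the axis the groups did not overlap. For levels of single tested genes that share was 60.7%, and it was not computed for ratios of other genes. Ratios that share a gene are not separate results. A two-sided exact permutation test gave p = 0.1 for each ratio, which is the smallest that 3 against 3 libraries allow. After adjustment over the 8 ratios this p was also 0.1.

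The binding proteins went separate ways. IGFBP4 (ENSG00000141753, chr17:40443461-40457731, plus strand), which mostly holds IGFs back from their receptor, was at 9.86, 11.4 and 10.8 CPM in DMSO and at 30.6, 33.3 and 28.8 after nitidine chloride. It rose with a log2 fold change of 1.53 ± 0.10 (edgeR adjusted p = 1.49e-05), and 1.04% of tested genes had a higher value. IGFBP2 (ENSG00000115457, chr2:216632828-216664436, plus strand) was at 67.1, 66.2 and 59.3 CPM in DMSO and at 75.5, 70.2 and 77.2 after treatment. IGFBP5 (ENSG00000115461, chr2:216672105-216695525, minus strand) was at 55.1, 59.7 and 55.3 CPM in DMSO and at 46.3, 50.8 and 46.5. The highest library of the lower group and the lowest of the higher group were close to each other for both of these genes.

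IGFBP2 and IGFBP5 are neighbours on chromosome 2, on opposite strands and 7.67 kb apart at their ends. IGFBP2 rose with 0.21 ± 0.08 (edgeR adjusted p = 0.0484) and IGFBP5 fell with -0.24 ± 0.08 (edgeR adjusted p = 0.0265). Neither call held when any library but nitidine chloride replicate 2 was left out, with edgeR adjusted p-values from 0.0513 to 0.182. The IGFBP5 fall was -0.14 and did not pass with scaling by library size alone (edgeR adjusted p = 0.126). The log2 ratio of IGFBP2 to IGFBP5 was 0.28, 0.15 and 0.10 in DMSO and 0.70, 0.47 and 0.73 after treatment, all treated libraries being higher. Relative to IGFBP5 the reads of IGFBP4 rose 3.42-fold, and relative to IGFBP2 they rose 2.49-fold, with the exact permutation p given above.

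IRS4 (ENSG00000133124, chrX:108732482-108736409, minus strand) was by far the most abundant gene of the axis. Its level was 1276, 1379 and 1358 CPM in DMSO and 262, 251 and 269 after nitidine chloride, a log2 fold change of -2.36 ± 0.06 with an edgeR adjusted p of 4.28e-07. Within the groups the libraries differed little. Genes were also ordered by FPKM (fragments per kilobase of a length set for each gene, scaled to library depth by the authors). IRS4 ranked between 64 and 72 of all genes in the DMSO libraries and between 355 and 446 in the treated libraries. These ranks depend on the lengths behind the FPKM. For IRS4 the length was 3928 bp, equal to its exons. For several other genes it was longer than the exons of a transcript, as given below, which lowers their FPKM. Over all genes the lengths were not compared.

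IRS2 (ENSG00000185950, chr13:109752698-109786568, minus strand), a main substrate in liver and beta cells, was at 32.0, 29.01 and 31.5 CPM in DMSO and at 24.5, 25.3 and 22.3 after treatment. All treated libraries were lower, and IRS2 fell with -0.36 ± 0.09 (edgeR adjusted p = 0.0109). IRS1 (ENSG00000169047, chr2:226731317-226799759, minus strand), the substrate best known from muscle and fat, was low, with 107, 119 and 155 reads counted in the control libraries and 126, 168 and 170 in the treated ones. Its groups overlapped, and at 0.22 ± 0.15 (edgeR adjusted p = 0.242) a change was not detectable at this depth and spread between libraries. In reads, IRS4 went down 3.99-fold relative to IRS2 and 5.94-fold relative to IRS1.

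**Figure D2:**
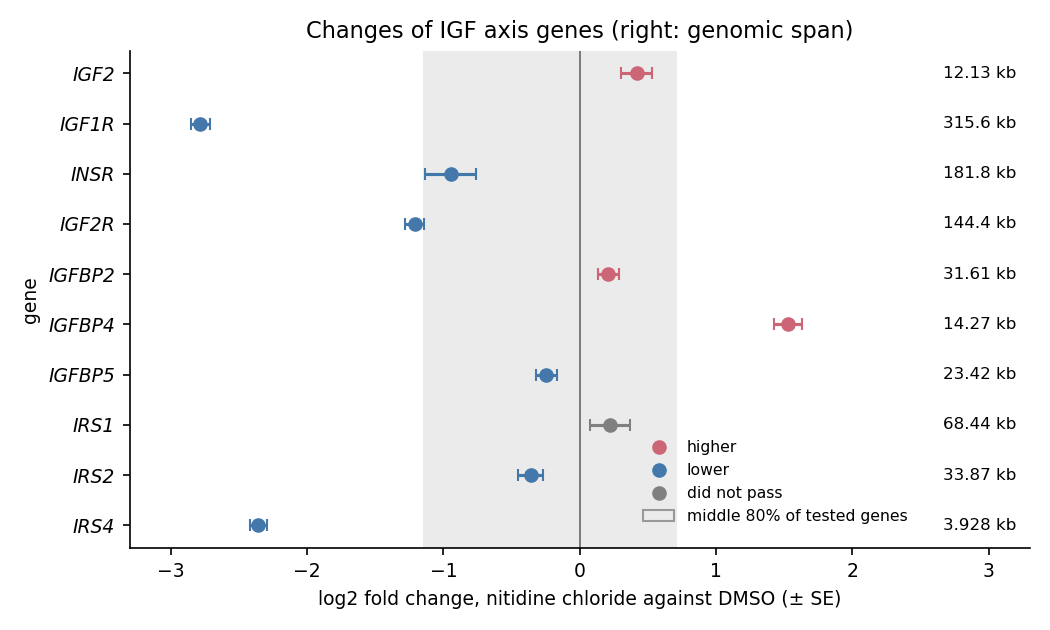
Log2 fold change of each gene (nitidine chloride against DMSO, edgeR, bars ± SE), coloured by call, with genomic span at the right and a grey band from -1.14 to 0.70 that holds the middle 80% of tested genes. IGF1R, IGF2R and IRS4 lie below the band and IGFBP4 above it.

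Levels were compared between genes by FPKM, per length. In DMSO the order was IRS4 (328 ± 14.5 FPKM, SD, n = 3), IGF2R (18.6 ± 0.97), IGFBP2 (8.44 ± 0.55), IGFBP5 (7.30 ± 0.35), IGF1R (4.70 ± 0.12), IGFBP4 (4.69 ± 0.37), IRS2 (3.65 ± 0.18), INSR (2.78 ± 0.76), IGF2 (1.67 ± 0.21) and IRS1 (0.85 ± 0.07). The libraries of IGF1R and IGFBP4 overlapped, as did those of IRS2 and INSR, while the other neighbours in this order did not. After nitidine chloride IGFBP4 was second with 14.5 ± 0.80 FPKM and IGF1R was last with 0.73 ± 0.04, and no neighbours overlapped. The length behind the FPKM was 24616 bp for IGF1R, against 12235 bp of exons in its GENCODE transcript with the longest coding part. It was 9880 against 1583 bp for IGF2, 7326 against 1439 bp for IGFBP2 and 12403 against 4721 bp for INSR. The length also exceeded all GENCODE exons of the gene merged, which hold 13941 bp for IGF1R and 6979 bp for IGF2. Merged exons hold 4767 bp for IGFBP2 and 10451 bp for INSR. For IGF2R the length was 15843 bp, below the 17843 bp of its merged exons. For IGFBP4 and IRS4 the lengths were equal. FPKM thus places IGF1R, IGF2, IGFBP2 and INSR lower than those transcript lengths would, and the order depends on the lengths used.

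The makeup of each family shifted. IRS4 gave 98.6% ± 0.11 of the summed FPKM of IRS1, IRS2 and IRS4 in DMSO and 94.3% ± 0.36 after treatment, while that sum went from 332 ± 14.3 to 73.0 ± 3.54 FPKM. IRS4 thus kept the largest share in every library although most of its transcript level was gone. IGF1R gave 64.5%, 57.0% and 68.2% of the FPKM of IGF1R plus INSR in the DMSO libraries and 35.4%, 29.8% and 31.5% in the treated ones, so that INSR held the larger share in all 3 treated libraries. IGFBP4 gave 23.0% ± 1.46 of the FPKM of the 3 binding proteins in DMSO, the smallest share, and 45.9% ± 2.08 after treatment, the largest. This order rests on the lengths behind the FPKM, 2200 bp for IGFBP4 and 7326 bp for IGFBP2. Exons of their GENCODE transcripts with the longest coding part hold 2200 and 1439 bp. In CPM, IGFBP4 stayed the lowest of the 3 after treatment, at a mean of 30.9 against 74.3 for IGFBP2 and 47.9 for IGFBP5. The sum over the 3 rose from 20.4 ± 0.92 to 31.7 ± 0.33 FPKM with no overlap of the groups, and was not tested.

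**Figure D3:**
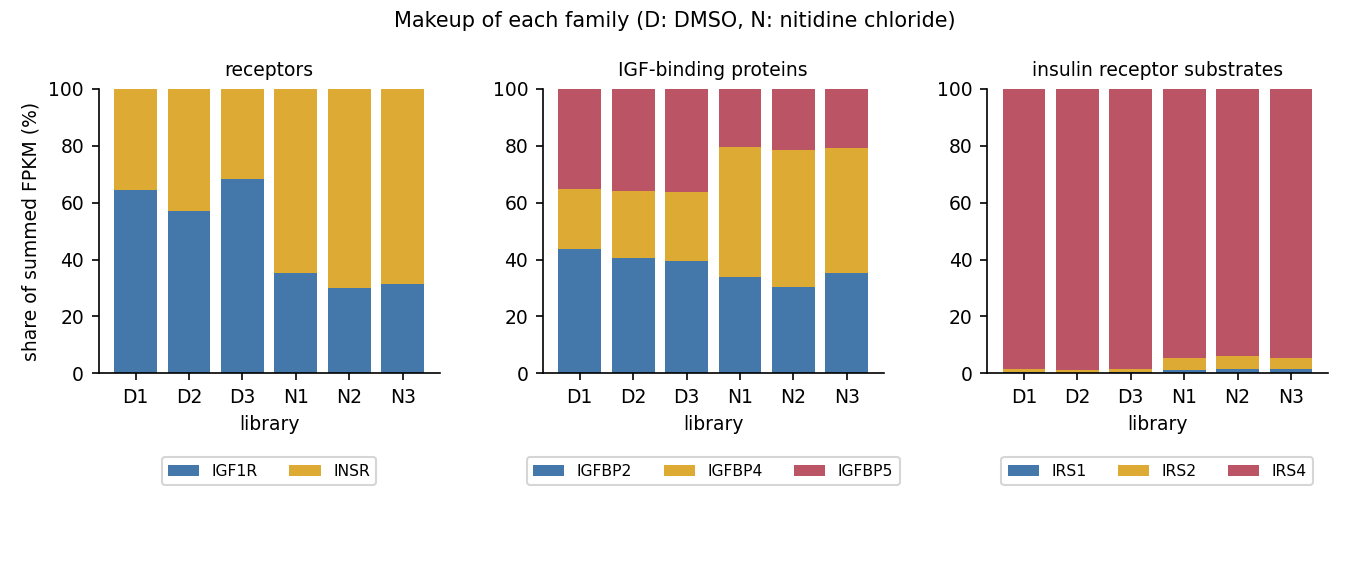
Share of each gene in the summed FPKM of its family, in percent, with 1 bar for each DMSO library (D1 to D3) and nitidine chloride library (N1 to N3). IGF1R passes from the larger to the smaller receptor share, IGFBP4 grows from 23.0% to 45.9% of the binding proteins, and IRS4 stays at 93.9% or more of the substrates.

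The median log2 fold change was lower in classes of longer genomic span across the whole table, and the 10 genes differed in where they lay within their class. Among 1738 tested genes spanning 100 to 200 kb the median log2 fold change was -0.84 and 75% were called lower. IGF2R (144 kb) had 24.1% of that class below it and INSR (182 kb) 41.8%. IGF1R belongs to the 1047 genes of 200 kb or more, with a median of -2.002, and 25.7% of them were below it. IRS1 (68.4 kb) had a value above 81.7% of the class of 50 to 100 kb, whose median was -0.21. IGFBP2, IGFBP5 and IRS2 lie in the class of 20 to 50 kb with a median of 0.13, where 58.3%, 16.7% and 10.6% of genes were below them. IGF2 and IGFBP4 lie in that of 10 to 20 kb with a median of 0.30, where 61.1% and 98.5% were below them.

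IRS4 stood apart from genes of its span. The 4362 tested genes under 10 kb had a median log2 fold change of 0.17, 10.2% were called lower, and only 12 of them (0.28%) had a lower value than IRS4. IGFBP4 was exceeded by 34 of 2396 genes in its class (1.42%). These shares describe the position of each gene and are no test.

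**Figure D4:**
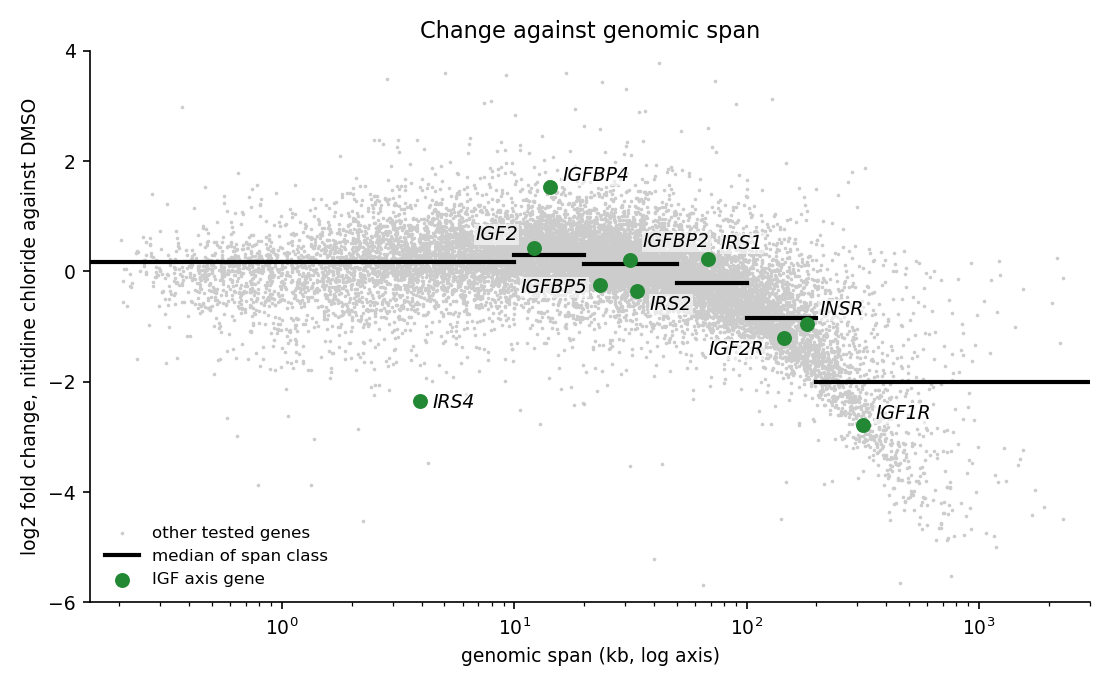
Log2 fold change against genomic span (kb, log axis) for all tested genes (grey, 15 lie beyond the y axis), with the median of each span class (black lines) and the 10 genes of the IGF axis (green). The receptors follow the falling medians of long genes, whereas IRS4 lies far below and IGFBP4 above the median of short genes.

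The surroundings of IRS4 on the X chromosome were also lower, a pattern looked at after the values had been seen. All 6 tested genes within 500 kb fell, against 27% of all tested genes, with log2 fold changes from -2.62 to -1.57. COL4A5 and COL4A6, which encode chains of basement membrane collagen and span 258 and 284 kb, fell with -2.06 ± 0.09 and -1.73 ± 0.09, and 89.3% of genes of 200 kb or more were called lower. The others were noncoding transcripts of 1.06 to 10.6 kb. AL035425.3, at 7.54 kb from IRS4, fell with -2.36 ± 0.07 and AL035425.4, at 5.53 kb, with -2.62 ± 0.12. AL035425.2 overlaps IRS4 by 206 bp on the same strand and fell with -2.52 ± 0.13, and AL035425.1 overlaps it by 399 bp on the opposite strand and fell with -1.57 ± 0.28. Both overlapping transcripts together had few reads beside IRS4 (2.23% and 1.26% of its counts), and whether the counting used strand is not given in the sources used here. Around IGFBP4, 8 of 18 tested genes within 500 kb were called higher and 2 lower, against 24.7% and 27% of all tested genes, from -0.80 for AC080112.1 to 0.93 for NR1D1, so none reached its value.

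Of the other ligands, receptors and binding proteins, few were made in these cells. IGF1, INS and IGFBP1 had 0 counts throughout, IGFALS 0 to 2 and INSRR 2 to 8. IGFBP3, the main carrier of IGFs in blood, had 2, 4 and 2 reads in the control libraries and 15, 19 and 12 in the treated ones, too few to be tested. IGFBP7, a low-affinity relative, fell with -0.999 ± 0.15 from 77 to 87 reads in the control libraries, and IGFBPL1 rose with 0.68 ± 0.10. Among genes that set IGFBP cleavage, STC2, a secreted inhibitor of the IGFBP4 protease PAPPA, rose from 151 ± 1.74 to 324 ± 14.5 CPM with 1.10 ± 0.06. PAPPA itself and PAPPA2 had 0 to 3 counts in each library. HTRA1, a secreted protease that cuts IGFBP5, fell with -0.72 ± 0.09, and STC1 was at -0.02 ± 0.12. Transcripts of the proteins that bind IGF2 mRNA all fell, IGF2BP2 (181 kb) with -1.85 ± 0.09, IGF2BP3 (160 kb) with -1.84 ± 0.08 and IGF2BP1 (58.2 kb) with -0.38 ± 0.05. Of all tested genes 27% were called lower. That share was 75% for spans of 100 to 200 kb and 39.8% for 50 to 100 kb.

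Downstream of the receptors, 54 genes in 5 lists were tested, of which 31 were called lower and 12 higher, against 27% lower and 24.7% higher over all tested genes, which are also the shares to set beside each list that follows. Their median log2 fold change was -0.45 against 0.01 for all tested genes. Their median span was 87.6 kb, against 27.3 kb for all tested genes, and its part in this count was not tested. Of 13 adaptors 7 fell and 3 rose. SOS1, the RAS exchange factor, fell with -1.21 ± 0.07, and the docking proteins GAB2 (59 to 170 reads per library) and GAB1 with -1.20 ± 0.16 and -1.15 ± 0.13, while the adaptor CRKL rose with 0.59 ± 0.07. GRB2, which links receptors to SOS, was called higher at 0.80 ± 0.28, but the control libraries had 783, 817 and 960 reads of it and the treated ones 839, 2031 and 1843. The groups of GRB2 overlapped, and its call was lost when any library but nitidine chloride replicate 1 was left out. SH2B1 was called higher at 0.34 ± 0.12, a call lost without DMSO replicate 2 or 3 or nitidine chloride replicate 1 or 2.

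Among 13 genes that restrain or degrade the receptors 8 fell and 2 rose. The ubiquitin ligases NEDD4L, NEDD4 and CBLB fell with -2.15 ± 0.09, -1.53 ± 0.17 and -1.41 ± 0.12. SOCS1, a suppressor of cytokine and insulin signalling, rose with 2.09 ± 0.36 from only 0.63 ± 0.17 CPM, and SOCS2 with 0.71 ± 0.12. In the group of PI3K, PDK1 and AKT, 7 of 11 genes fell and the other 4 did not pass. PIK3CB, a catalytic PI3K subunit, fell with -1.53 ± 0.09 and PIK3CA, another, with -0.71 ± 0.16. AKT1 was at 0.02 ± 0.23.

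The antagonists of this branch had 4 of 7 lower and 2 higher. PHLPP1, an AKT phosphatase (265 kb), fell with -2.60 ± 0.14, and PPP2R5C, a phosphatase subunit, with -0.89 ± 0.09. TRIB3, a pseudokinase that binds AKT and a known ATF4 target, rose from 26.9 ± 1.11 to 74.1 ± 9.23 CPM with 1.46 ± 0.10, and INPPL1, which encodes the lipid phosphatase SHIP2, with 0.51 ± 0.07. Of 10 AKT substrates 5 fell and 5 rose. GSK3B (273 kb) fell with -2.27 ± 0.09 while its paralog GSK3A (12.4 kb) rose with 0.60 ± 0.06. TBC1D4 and TBC1D1, which hold back glucose transporters, fell with -1.67 ± 0.06 and -1.48 ± 0.11, and FOXO4 and PFKFB2 rose with 0.67 ± 0.16 and 0.56 ± 0.06.

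The mannose 6-phosphate route, in which IGF2R sorts lysosomal enzymes, had 5 of 10 genes called higher and 1 lower, against 24.7% and 27% of all tested genes, and 4 did not pass. The median log2 fold change was 0.22 and the median span 25.4 kb, and in the class of 20 to 50 kb 30.8% of genes were called higher. NAGPA and GNPTG, which help to make the mannose 6-phosphate tag, rose with 0.81 ± 0.11 and 0.52 ± 0.10, and the sorting adaptor GGA2 rose with 0.39 ± 0.09. GNPTAB, the catalytic part of the tagging enzyme, fell with -0.44 ± 0.10. M6PR, the smaller mannose 6-phosphate receptor, was at 0.27 ± 0.10 and did not pass (edgeR adjusted p = 0.0552).

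**Figure D5:**
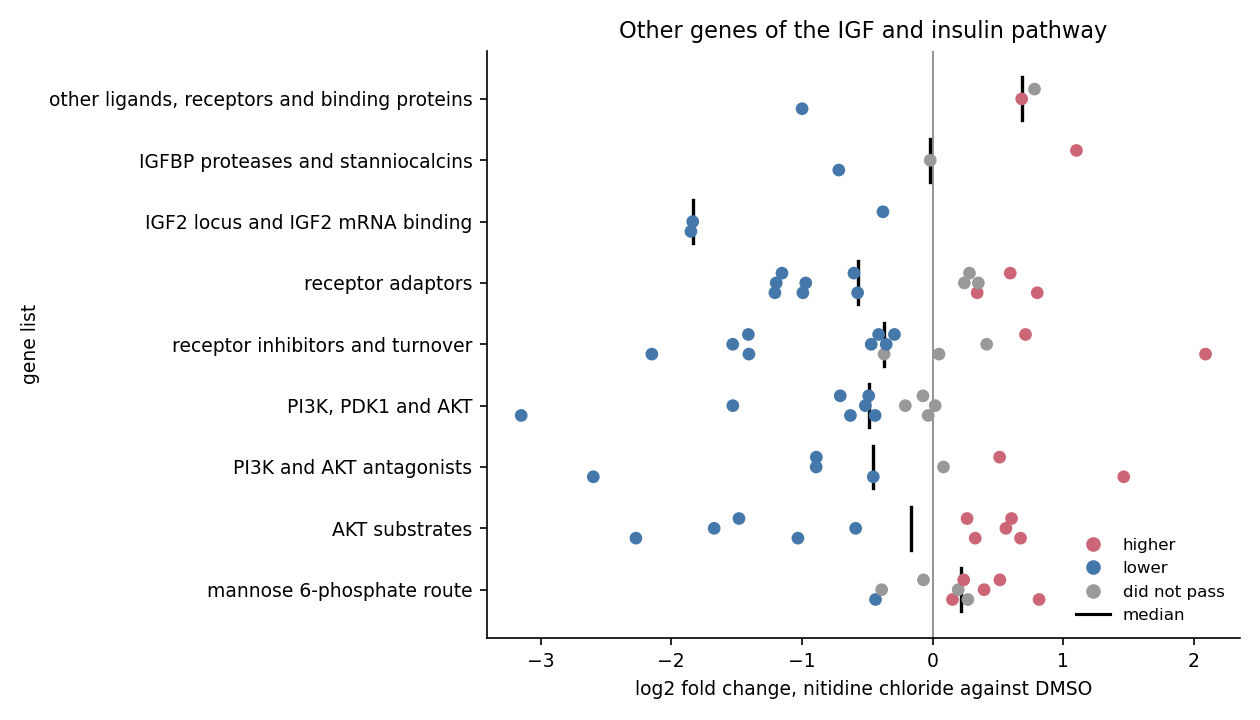
Log2 fold changes of the other tested genes of the pathway by list, with 1 point per gene coloured by call and a black line at the median of the list. The lists from receptor adaptors to AKT substrates have medians below 0, and the mannose 6-phosphate route has a median of 0.22.

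Libraries held between 12688093 and 16357992 counts. With scaling by library size alone the median log2 fold change of all genes was 0.12 instead of 0.01, and 57.9% of called genes were higher instead of 47.7%, so that directions are relative to the TMM scale. None of the 10 genes changed direction between these scalings. Of 8 markers of the cell line 7 were tested, and INA had at most 1 count in a library. Their summed level was between 1134 and 1429 CPM over all libraries, of which VIM alone gave 655 to 1075. Within this list CDH2, LIN28B and NEFM fell with -2.04 ± 0.08, -1.18 ± 0.07 and -0.52 ± 0.07, and KRT8 and KRT18 rose with 0.60 ± 0.15 and 0.45 ± 0.12. Of markers of other cells, 6 fibroblast genes summed to 34.3 to 38.8 CPM in DMSO and 55.1 to 62.6 after treatment, 6 leukocyte genes to 5.19 to 5.97 and 7.45 to 8.48, 6 endothelial genes to 1.42 to 2.09 and 4.54 to 5.62, and 6 genes of other epithelia to 5.26 to 6.66 and 4.61 to 5.11. Most of the fibroblast sum came from COL1A1, at 30.0 to 34.1 CPM in DMSO and 50.2 to 57.0 after treatment. CD3E, CLDN5 and KRT20 had 0 counts. Their part in the changes was not tested.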

How the data were processed

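mRNA sequencing libraries of 6 HEK-293T samples, 3 per group, were grouped and numbered by the sample titles. The deposited table held unscaled counts of reads for each gene, per the file headers, and the authors' FPKM for each gene, likewise per the file headers. Per the submitters' processing notes the tools included HISAT2 2.0.4 and StringTie 1.3.0, with no roles stated. How reads were counted, with which use of strand and on which build and annotation, was not given in the sources used here. Positions are the table's. Those of 8 of the 10 genes equal GENCODE release 29 (GRCh38), as do 47488 of 50152 compared.

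The test covered genes whose mean count over the 6 libraries reached 10, and was run with edgeR 4.0.16 (R 4.3.3): TMM scaling, quasi-likelihood test of nitidine chloride against DMSO, Benjamini-Hochberg adjustment over 15953 genes, threshold 0.05. The SE is the log2 fold change divided by the square root of F. CPM are TMM-scaled. Ratios were compared with scipy 1.17.1, plots drawn with matplotlib 3.10.9. The members and the 9 other pathway lists (84 genes) were chosen with earlier results of these data known. Of each list, up to 3 genes per direction with the most extreme change were named, as well as genes overlapping a member. Some genes that the rule would name are not reported here. Others named were chosen after their values were seen. Alternatives used DESeq2 1.42.0 and limma 3.58.1.
The count test was checked on simulated data of 15813 genes, of which 66 were changed 1.5-fold, 64 2-fold and 64 4-fold. It called 40.9%, 84.4% and 100% of these, and 3 of its 148 calls were false. Far fewer genes were changed there than were called in these data, so the check does not cover shifts of that extent.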

Additional observations from a re-analysis of the deposited data

How the results depend on the processing

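IGF1R, IGF2R, IGFBP4 and IRS4 kept their direction and their call under all 15 alternatives, with log2 fold changes from -2.82 to -1.72, -1.25 to -1.02, 1.45 to 1.63 and -2.39 to -2.23. The -1.72 of IGF1R came from limma on log2(FPKM + 1), for a gene at 4.70 FPKM in DMSO and 0.73 after treatment. Its smallest fall on counts was -2.68, with scaling by library size alone. No gene of the axis changed direction. INSR failed only the test against a 1.5-fold change (edgeR adjusted p = 0.0706), and IRS2 only this test and an adjusted p threshold of 0.01. IRS1 passed under none. The number of genes of the axis called higher was 1 with the test against a 1.5-fold change and with the threshold of 0.01, and 1 to 3 with a library left out. With the test against a 1.5-fold change 3 were called lower, downstream 2 genes were higher and 18 lower, and over all genes 750 were higher and 2083 lower. With the threshold of 0.01, 2616 genes were called higher. Same-numbered libraries had correlations of their deviations of -0.03, -0.08 and 0.06, so no pairing by replicate number was visible. These values cannot tell whether such libraries were handled as pairs. With a replicate block 3492 genes were called higher and 4063 lower, and only IGFBP2 of the axis lost its call (edgeR adjusted p = 0.104). The 8 ratios and the family shares kept their direction with each library left out. This had to follow, because the groups overlapped for none of them. Low counts limit the precision of IRS1, SOCS1, IGFBP7 and GAB2, IGFBP3 was too low to be tested, and with a mean count of at least 50 SOCS1 was not tested.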
